A study of Mus musculus with 2 samples.

Results

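Ghrl-dominant cells are named here for the leading hormone gene Ghrl, which encodes ghrelin, the hormone of the X cells of the mouse small intestine. Among 12591 sequenced barcodes 192 of them were found, 67 in WT and 125 in NFKO. They were chosen by a fixed rule on unique molecular identifiers (UMIs, 1 per captured transcript). The rule does not ask for Ghrl alone, and 22 WT and 52 NFKO cells also had other hormone genes at 10% or more of the Ghrl UMIs. A barcode needed at least 500 genes, at least 1000 UMIs, at most 25% mitochondrial UMIs and fewer than 3 UMIs of Neurog3, the factor that starts endocrine fate. Ghrl then had to lead the 7 hormone genes Gip, Gcg, Pyy, Cck, Sst, Ghrl and Nts and to make at least 1% of the barcode's UMIs. Of all barcodes, 8761 passed the quality limits and 1949 were led by any of the 7 hormones under the same rule. These last are called hormone-dominant cells, and the 1757 of them not led by Ghrl serve as the comparison.

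The study asked how loss of FoxO1, a transcription factor restrained by insulin, alters the cells that descend from Neurog3 progenitors. Both groups carried Neurog3Cre and the Rosa26tdtomato reporter, which marks every descendant of a Cre-expressing cell red, and the red (Tomato+) epithelial cells of the small intestine were sorted and sequenced by 10x Genomics 3′ single-cell RNA-Seq. WT mice were Neurog3Cre; Rosa26tdtomato, and NFKO mice were Neurog3Cre-FoxO1 f/f; Rosa26tdtomato, so that FoxO1 was deleted only where Neurog3Cre had been active. Each group was 1 library from the pooled small intestines of 4 to 5 mice aged 4 to 6 weeks, so no test between genotypes was possible, and every interval given is a 95% interval of counting error alone.

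Ghrelin is a peptide hormone that stimulates appetite and growth hormone release. It binds its receptor only after ghrelin O-acyltransferase, the product of Mboat4, has attached a medium-chain fatty acid to the serine at the third position. Long-chain acyl-CoA synthetases such as Acsl1 activate fatty acids to their CoA form, and Irs4 is an adaptor protein below the insulin and IGF-1 receptors. Most ghrelin is made in the stomach, by cells called X or A-like cells, and related endocrine cells are scattered along the small intestine.

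The stretch of Ghrl that encodes the mature hormone is shown because it holds the codon of the serine whose acylation receptor binding requires. Ghrl lies on the minus strand at chr6:113716119-113719880 (GRCm38), and the hormone is encoded by parts of 2 exons, at chr6:113719322-113719360 and chr6:113719182-113719226 in Ghrl-201. In Ghrl-205 the second block starts 1 codon later in the reading direction, at chr6:113719182-113719223, so the peptide has 27 residues in place of 28. Both lines are read 5′ to 3′ from the GENCODE M21 transcripts, and the capitals mark the codon of the acylated serine.
Ghrl-201: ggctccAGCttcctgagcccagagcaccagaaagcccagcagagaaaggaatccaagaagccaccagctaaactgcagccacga
Ghrl-205: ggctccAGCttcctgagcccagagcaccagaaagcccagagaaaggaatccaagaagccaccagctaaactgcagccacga
The 3′ counts fall at the end of the transcript and do not separate these forms.

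The Ghrl-dominant cells had a median of 13759 UMIs and 4125 genes in WT and of 15456 UMIs and 4343 genes in NFKO, and they held 988143 and 1783611 UMIs in all. Of the NFKO cells, 18 had fewer than 2000 UMIs, against 0 in WT. The pools differed in sex, judged from Y-linked genes and Xist: 56 WT cells were male-typed and 0 female-typed, against 11 and 100 in NFKO, so sex and genotype cannot be told apart. The libraries shared 6 barcodes, none of them in a Ghrl-dominant cell. Of the 6 immune markers, none had a UMI in any Ghrl-dominant cell, and tuft markers were at 0 in 64 of 67 WT and 112 of 125 NFKO cells. The summed goblet markers ranged from 203 to 81126 CPM (UMIs of a gene per 1e+06 UMIs) with a median of 4986 in WT, and from 1239 to 79431 with a median of 10104 in NFKO, all 8 genes being detected. The insulin genes Ins1 and Ins2 were at 0 UMIs in every Ghrl-dominant cell, which allows up to 3.04 CPM in WT and 1.68 CPM in NFKO.

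The share of Ghrl-dominant cells did not differ between the libraries beyond counting error under the rule. They made 2.14% (1.66 to 2.71) of the WT barcodes that passed the quality limits and 2.22% (1.85 to 2.64) of the NFKO barcodes, a ratio of 1.04 (0.764 to 1.42). Among hormone-dominant cells they were 10.5% (8.24 to 13.2) in WT and 9.53% (7.99 to 11.2) in NFKO, a ratio of 0.906 (0.668 to 1.24). Among barcodes that passed the quality limits, the ratio was 1.34 (1.04 to 1.73) with no limit on Neurog3, from 2.91% of WT and 3.89% of NFKO, and it was 1.41 (1.05 to 1.91) over every deposited barcode with no quality limit. The share among barcodes was thus higher in NFKO beyond counting error under those 2 settings. Among hormone-dominant cells it was not, with ratios of 1.13 (0.877 to 1.45) with no limit on Neurog3 and 0.944 (0.701 to 1.28) with no quality limit. The limit of 1% cut few cells closely. The highest Ghrl share outside was 0.958% in WT and 0.973% in NFKO, and the lowest inside was 1.18% and 1.05%.

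Within the chosen cells Ghrl ran from just above the limit to a large part of the transcriptome. In WT the Ghrl share of a cell's UMIs was 1.18% at the lowest, 6.02% at the median and 18.5% at the highest. In NFKO it was 1.05% at the lowest, 7.37% at the median and 42.6% at the highest. The lower ends and medians lay close together, whereas 18 NFKO cells exceeded the highest WT cell. All 18 had little of the other 6 hormones of the rule, 17 carried Irs4, and 16 were female-typed and 2 male-typed. Summed over cells, Ghrl stood at 65735 CPM (65231 to 66243) in WT and 131159 CPM (130628 to 131691) in NFKO, a ratio of 2.0 (1.98 to 2.01). With the same weight for each cell the ratio was 1.5. Because the rule used Ghrl, these levels are a description.

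**Figure D1:**
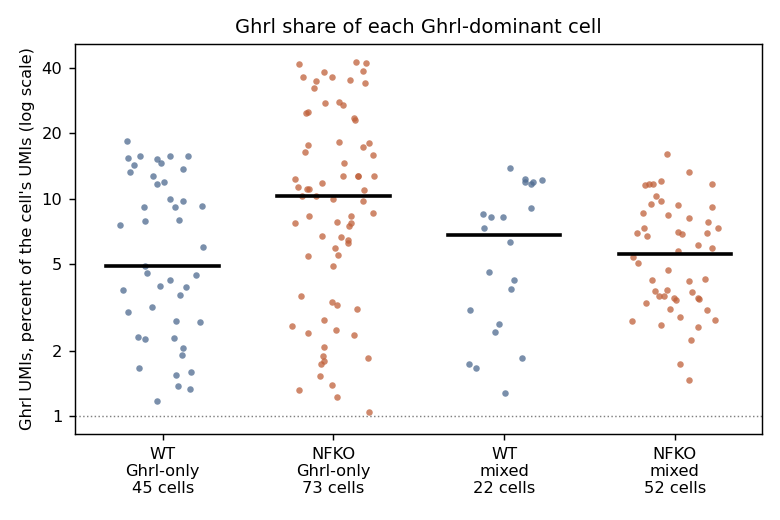
Ghrl UMIs as a percentage of each cell's UMIs (log scale) in the Ghrl-dominant cells of WT (blue) and NFKO (orange), split by whether the other 6 hormones together stayed under 10% of the Ghrl UMIs (Ghrl-only) or not (mixed). Each point is a cell, black bars are medians, and the dotted line is the limit of 1%. The NFKO Ghrl-only group reaches 42.6%, and the highest WT cell is at 18.5%.

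Ghrl was also read in cells led by other hormones. The Ghrl-dominant cells held 53.9% of the Ghrl UMIs of all WT barcodes that passed the quality limits and 49.8% in NFKO, and the other hormone-dominant cells held 28.2% and 27.1%. Somatostatin (Sst)-led cells came next to the Ghrl-dominant cells, at 8954 CPM in WT and 28848 CPM in NFKO. Cck-led cells followed at 8823 and 12024 CPM, cells led by the proglucagon gene Gcg or by Pyy at 6487 and 3788 CPM, neurotensin (Nts)-led cells at 1755 and 1881 CPM, and Gip-led cells at 143 and 258 CPM. Sst-led and Cck-led cells differed little in WT but not in NFKO. In Muc2-rich cells without Chga and Chgb, goblet-type cells used here to gauge free RNA in the droplets, Ghrl was at 11.1 CPM in WT and 44.3 CPM in NFKO.

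The 3 other ghrelin-cell markers, which the rule did not use, were all higher in Ghrl-dominant than in other hormone-dominant cells of both libraries. They were chosen with earlier results of these data known, so their levels are a description and no independent check of the name. Mboat4 (chr8:34115030-34125182), the ghrelin acyltransferase, reached 222 CPM (193 to 253) in WT and 278 CPM (254 to 304) in NFKO, against 29.1 and 28.7 CPM in the other hormone-dominant cells, 7.63-fold and 9.68-fold. Sst-led cells again came next, at 80.4 and 104 CPM, and the lowest levels were those of Gip-led cells, at 7.98 and 8.88 CPM, and of Nts-led cells, at 1.58 and 4.82 CPM. A Ghrl-dominant cell had from 0 to 10 Mboat4 UMIs with a median of 2 in WT, and from 0 to 20 with a median of 3 in NFKO. Mboat4 was thus detected in 57 of 67 WT cells (85.1%) and 91 of 125 NFKO cells (72.8%). After each cell was thinned to 2000 UMIs the shares were 35.8% in WT and 36.4% in NFKO, against 0 of 731 Muc2-rich reference cells in WT (upper limit 0.503%) and 0.385% of them in NFKO. Unthinned, 0.544% and 1.16% of the reference cells had a Mboat4 UMI, at median depths of 24257 and 9984 UMIs.

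Acsl1 (chr8:46471037-46536051) was at 418 CPM (379 to 460) in WT and 788 CPM (747 to 830) in NFKO Ghrl-dominant cells, against 31.2 and 39.6 CPM in the other hormone-dominant cells, 13.4-fold and 19.9-fold. It was uneven among the cells, with a median of 2 UMIs in both libraries but a highest value of 66 in WT and 85 in NFKO. The 4 WT and 11 NFKO cells with most Acsl1 carried at least 50% of its UMIs. It was detected in 47 WT (70.1%) and 88 NFKO cells (70.4%), and after thinning in 40.3% and 45.8%, against 8.89% and 9.06% of the Muc2-rich reference cells (54.1% and 40.2% unthinned), which express Acsl1 at 44.3 and 51.0 CPM.

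Irs4 (chrX:141710998-141725263) was the gene that separated the classes furthest. It had 90 UMIs in WT Ghrl-dominant cells, 91.1 CPM (73.2 to 112), and 0 UMIs in 570 other hormone-dominant cells, at least 212-fold higher against a floor of 3 counts over the group. In NFKO it was at 251 CPM (228 to 275) against 0.530 CPM, 473-fold (262 to 954). It was nonetheless read in a minority of the cells, 16 of 67 in WT (23.9%) and 42 of 125 in NFKO (33.6%), and in 9 of 1187 other hormone-dominant cells of NFKO. After thinning the shares were 14.9% and 20.6%, against 0 of 731 and 0 of 519 reference cells. The cells with an Irs4 UMI had a median Ghrl share of 10.4% in WT and 12.7% in NFKO, and those without it had 4.44% and 5.42%. All 3 markers were read together in 14 WT and 34 NFKO cells. None of the 3 was read in 4 WT cells, with a median of 7930.5 UMIs, and in 17 NFKO cells, with a median of 1639 UMIs.

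**Figure D2:**
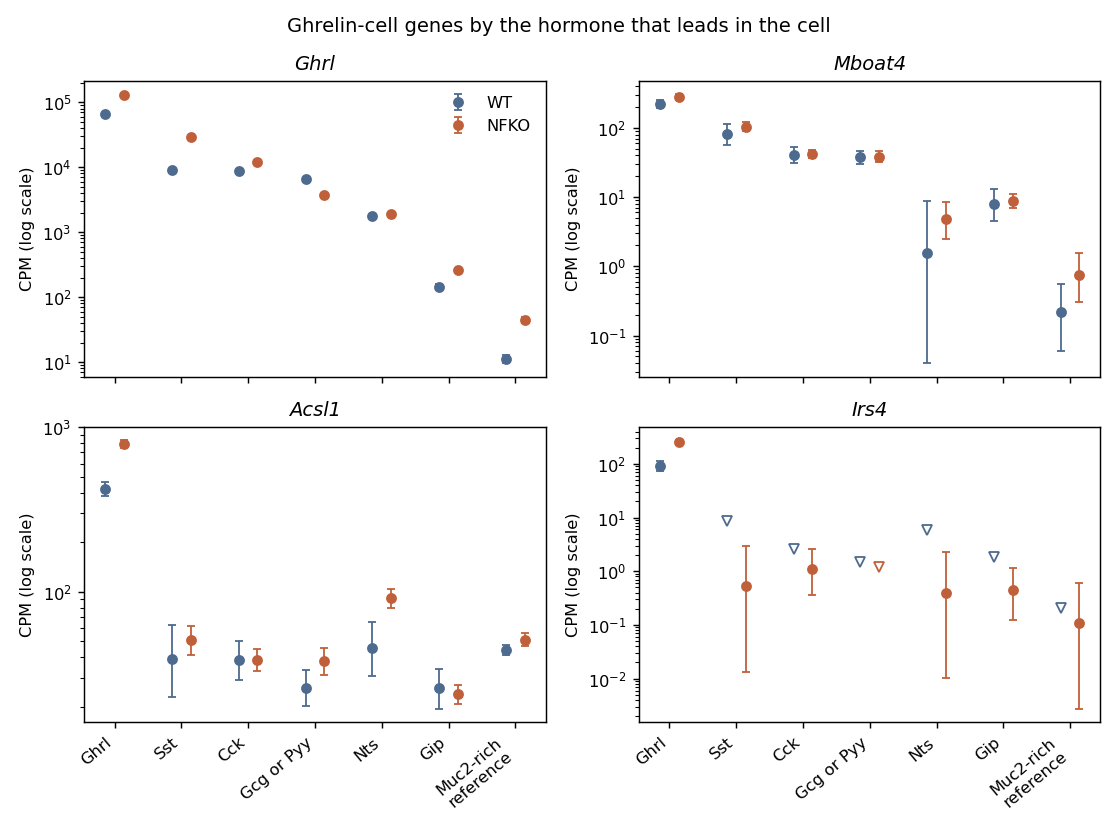
Levels of Ghrl, Mboat4, Acsl1 and Irs4 (CPM, log scale) in cells led by each hormone and in the Muc2-rich reference cells, in WT (blue) and NFKO (orange). Points are summed UMIs of a class with 95% Poisson intervals of counting error, and open triangles mark the upper limit where no UMI was found. In all 4 panels the Ghrl-led cells are highest, with Irs4 near 0 elsewhere.

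Over all genes, 11723 had at least 20 UMIs in the compared cells of each library, and 245 of them (2.09%) were at least 2-fold higher in Ghrl-dominant than in other hormone-dominant cells in both libraries, while 546 (4.66%) were at least 2-fold lower. The median log2 ratio over all these genes was 0.05 in WT and 0.12 in NFKO. These shares are the background for the gene groups below, and no set was tested.

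After Irs4, the highest ratios in both libraries belonged to genes of varied known roles. Ooep, known from the oocyte, was at 162 CPM in WT and 139 CPM in NFKO, 45.2-fold and 58.9-fold above the other hormone-dominant cells. Zcchc12, a zinc-finger transcriptional co-activator encoded on the X chromosome, was at 117 and 86.3 CPM, 63.1-fold and 25.6-fold. The phospholipase gene Plb1 was at 410 and 414 CPM (19.2-fold and 37.1-fold) and Fxyd2, a regulatory subunit of the sodium pump, at 231 and 335 CPM (17.0-fold and 31.3-fold). Plb1 was detected in 65 of 67 WT and 94 of 125 NFKO cells, so that it was spread over most of the cells.

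The other genes with the highest ratios were also of varied known roles. Gper1, a G protein-coupled oestrogen receptor, was at 50.6 and 123 CPM (11.4-fold and 25.7-fold), with Sst-led cells close behind in WT at 48.3 CPM. Avpr1b, a vasopressin receptor, was at 157 and 114 CPM (5.71-fold and 8.72-fold), and the ephrin receptor gene Epha4 at 54.6 and 77.4 CPM (5.96-fold and 8.03-fold). Ceacam10 was at 285 and 412 CPM (6.99-fold and 14.3-fold), and Enpp1, an ectoenzyme that hydrolyses nucleotides, at 67.8 and 60.6 CPM (12.5-fold and 7.61-fold). Maged2, also X-linked, was at 648 and 1010 CPM (12.03-fold and 14.1-fold), and Ina, a neuronal intermediate filament, at 87.0 and 177 CPM (6.83-fold and 19.98-fold). Sst-led cells came next for Ceacam10 (142 and 125 CPM), Enpp1 (23.0 and 37.0 CPM) and Maged2 (117 and 221 CPM). They also came next for Ina (29.9 and 34.9 CPM) and Epha4 (20.7 and 33.8 CPM). For Avpr1b the next were Gcg-led or Pyy-led cells, at 49.8 and 40.5 CPM. Serpina1d and Serpina1c, of the alpha-1-antitrypsin family, were 18.0-fold and 9.73-fold higher in WT and 12.2-fold and 10.5-fold higher in NFKO. The Serpina1 copies are nearly identical, so how their reads divide between them is uncertain.

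Of the 8 genes furthest below the other hormone-dominant cells, 6 were highest in Gip-led cells. The cannabinoid receptor gene Cnr1 had 1 UMI in WT and 2 in NFKO Ghrl-dominant cells, against 110 and 156 CPM in the others. Nnat (neuronatin) had 0 and 6 UMIs against 207 and 386 CPM. Vim (vimentin) had 1 and 6 UMIs against 278 and 227 CPM, its highest class being Gcg-led or Pyy-led cells. Fabp5, a fatty acid-binding protein, was at 93.1 and 149 CPM against 2854 and 4996 CPM. Pkib had 0 and 5 UMIs, Gatm 0 and 16, and Gpx3 2 and 29. Iapp, the amylin gene, was at 1.01 and 70.6 CPM against 196 and 969 CPM, with Sst-led cells highest.

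**Figure D3:**
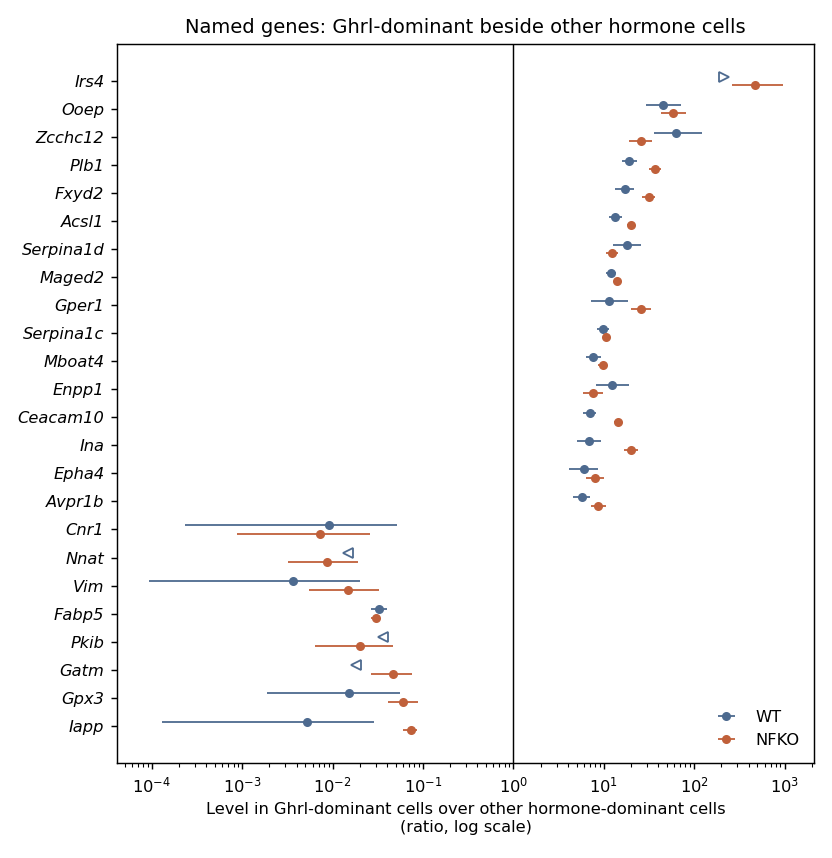
Level in Ghrl-dominant cells over that in other hormone-dominant cells (ratio, log scale) for the 16 genes with the highest and the 8 with the lowest ratios in both libraries, WT in blue and NFKO in orange. Bars are 95% intervals of counting error, and open triangles are bounds where a group had 0 UMIs. The Irs4 ratio is 473 in NFKO and at least 212 in WT, and Fabp5 lies near 0.03 in both.

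The genes for making and processing ghrelin were otherwise shared with the other endocrine cells. Of 18 measured genes of acylation and processing, 2 were at least 2-fold higher in both libraries, Mboat4 and Acsl1, and 0 were lower. Pcsk1, the prohormone convertase that cuts proghrelin, was at 416 and 524 CPM against 362 and 323 CPM. The processing enzyme gene Cpe was at 1093 and 1239 CPM against 1713 and 1584 CPM. Other acyl-CoA synthetases did not follow Acsl1: Acsl5 was at 57.7 and 50.5 CPM against 73.4 and 98.0 CPM, and Acsl3 at 28.3 and 22.4 CPM against 31.1 and 23.1 CPM. The ghrelin receptor gene Ghsr was at 0 UMIs in both libraries.

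Insulin and IGF signalling genes showed no common shift. Of 22 measured, Irs4 was at least 2-fold higher and Irs1 at least 2-fold lower in both libraries. Irs1 was at 17.2 and 10.1 CPM against 40.9 and 27.9 CPM. The insulin receptor gene Insr was at 37.4 and 45.4 CPM against 43.7 and 32.0 CPM, and Irs2 at 37.4 and 24.1 CPM against 33.9 and 16.05 CPM.

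Endocrine transcription factors leaned higher, 7 of 31 measured at least 2-fold higher in both libraries and 2 lower, with median log2 ratios of 0.32 in WT and 0.57 in NFKO. Nkx2-2 was at 329 and 357 CPM against 143 and 126 CPM. Rfx3, Foxa2 and Tox3 were from 2.25-fold to 2.89-fold higher. The higher genes also included Zcchc12 and Neurog3, which the rule capped at 2 UMIs per cell. Isl1, a factor common to several hormone cells, was at 1279 and 1217 CPM, 1.95-fold in WT and 2.06-fold in NFKO, and Pax6 was at 415 and 314 CPM, 0.906-fold and 0.887-fold. The lower genes were Hhex, known for somatostatin cells, with 0 and 34 UMIs, and Pdx1, known for the duodenum and pancreas, with 2 and 14 UMIs.

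Nutrient and hormone receptors leaned lower, 2 of 20 measured being higher and 5 lower. Ffar2, a receptor of short-chain fatty acids, was at 331 and 302 CPM against 76.3 and 74.2 CPM, 4.34-fold and 4.07-fold, and Gipr at 36.4 and 25.2 CPM, 2.99-fold and 3.03-fold. The lower genes were Gpbar1, the bile acid receptor, with Sstr1, Glp1r, Ptger3 and Cnr1. The long-chain fatty acid receptor gene Ffar1 was at 141 and 127 CPM against 350 and 253 CPM.

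Of 15 other secreted products measured, 6 were at least 2-fold lower in both libraries, 1 was higher and 8 passed in neither direction. Gal (galanin) was the higher one, at 75.9 and 131 CPM against 15.9 and 7.33 CPM. The lower genes were Sct, Tac1, Tph1, Iapp, Insl5 and Rbp4. Secretin (Sct) was at 2970 and 13606 CPM against 19626 and 39803 CPM. Among granins and exocytosis genes, Chga was higher, at 976 and 1607 CPM against 455 and 530 CPM, with Rab3c, and Chgb was lower, at 1027 and 1764 CPM against 8126 and 6187 CPM, with Rab3b and Cplx1. The granins Chga and Chgb thus lay on opposite sides in the same cells. The Chga gap differed by class. After thinning, Chga was read in 82.1% of WT and 84.1% of NFKO Ghrl-dominant cells. The shares were 19.0% and 29.4% in Gip-led and 40.5% and 38.7% in Sst-led cells. They were 56.25% and 54.8% in Cck-led, 60.8% and 68.3% in Gcg-led or Pyy-led, and 67.6% and 75.2% in Nts-led cells.

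Among 17 measured genes known as FoxO targets, 2 were higher and 2 lower in both libraries. Cdkn1a, a cell-cycle inhibitor also induced by stress, was at 2353 and 2680 CPM against 586 and 813 CPM, 4.02-fold and 3.30-fold. Fbxo32 was at 33.4 and 24.1 CPM, and Pck1 and Pdk4 had 1 UMI or none in each library. Ion channel genes had 1 of 18 higher (Gria2) and 1 lower (Asic5). Genes of proximal or distal intestine had 0 of 16 higher and 5 lower, which included Pdx1 and the distal genes Hoxb8, Hoxb9 and Fabp6. Lipid synthesis and storage genes had 0 of 21 higher and 3 lower (Scd2, Fabp5 and Apoa1), and immediate early and heat shock genes 0 of 23 higher and 2 lower (Hspb1 and Areg).

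Of all markers of other epithelial types, Chga alone was at least 2-fold higher in both libraries. Of 8 goblet markers 4 were lower (Agr2, Clca1, Spink4 and Spdef), but Tff3 was at 5739 and 9641 CPM against 2173 and 4858 CPM, 2.64-fold in WT and 1.98-fold in NFKO. Muc2 was at 314 and 274 CPM against 340 and 1114 CPM, so the goblet mucin did not share the Tff3 excess. These goblet levels are sums over cells. The median sum of the 8 goblet markers per cell was higher in Ghrl-dominant cells, 4986 CPM in WT and 10104 CPM in NFKO against 1413 and 3479 CPM. Single comparison cells reached 112789 and 410129 CPM. Summed over cells, 4 of 8 Paneth markers (Lyz1, Defa24, Defa17 and Itln1) were at least 2-fold lower in both libraries, but the median sum of the 8 per cell was 1263 CPM in WT and 1412 CPM in NFKO against 1561 and 1366 CPM, with single comparison cells reaching 374998 and 539960 CPM. Also lower by at least 2-fold in both libraries were 2 of 8 enterocyte markers (Apoa1 and Rbp2). So were, summed over cells, the stem markers Olfm4, Lgr5 and Smoc2, 3 of 5 measured, and 5 of 6 cycling markers (Mki67, Top2a, Ccnb1, Cdk1 and Birc5). The median stem sum per cell was however 61.3 CPM in WT and 48.9 CPM in NFKO against 65.8 and 58.5 CPM. The median cycling sum was 0 CPM in both sets of cells, with upper quartiles of 59.9 and 38.5 CPM against 0 and 0 CPM. Single comparison cells reached 6216 and 4039 CPM for stem and 2583 and 4767 CPM for cycling markers. None of 5 measured tuft markers passed in both libraries, and the whole list of 8 summed to 21.3 CPM in WT and 112 CPM in NFKO, against 29.1 and 27.6 CPM in the comparison cells. Enterochromaffin markers had 1 of 7 higher (Chga) and 3 lower (Tph1, Tac1 and Reg4). Of 8 pancreatic markers, 7 were at 0 UMIs in both libraries, and Cela1 passed neither limit.

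By the other 6 hormones of the rule, most Ghrl-dominant cells had either almost none of them or another at a high level. Secretin was not among these 6. The sum of the other 6 hormones was under 10% of the Ghrl UMIs in 45 of 67 WT cells (67.2%, 54.6 to 78.2) and 73 of 125 NFKO cells (58.4%, 49.2 to 67.1), called Ghrl-only here. The remaining 22 WT and 52 NFKO cells, called mixed, had a median of 59.1% and 70.2%. Between these lay 9 of 67 WT and 22 of 125 NFKO cells, from 3% to 30%. The limit of 10% was set after the values were seen, and none of what follows on the split was tested. Over all Ghrl-dominant cells, the hormone next after Ghrl was most often Cck, in 31 WT and 56 NFKO cells, followed by Gcg in 12 WT cells and by Gip in 31 NFKO cells. For this count 1 UMI was enough. Apart from 1 mixed cell with 295 Gip UMIs, the NFKO cells with Gip next had at most 8 Gip UMIs. In mixed cells Cck was at 20259 CPM in WT and 26912 CPM in NFKO, and Gcg at 24737 and 15232 CPM, with 21.4 and 79.3 CPM of Cck and 16.02 and 23.6 CPM of Gcg in the Muc2-rich reference. These levels are a description, since the split used the hormones. Gip was at 48.9 and 727 CPM in mixed cells, with 30.4 and 179 CPM in the reference. No doublet caller was run, and 14 of the 18 NFKO cells under 2000 UMIs were mixed.

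Irs4 and Acsl1 were concentrated in the Ghrl-only cells. Irs4 was read in 15 of 45 WT and 41 of 73 NFKO Ghrl-only cells, and in 1 of 22 and 1 of 52 mixed cells, at median depths of 13344 and 15582 UMIs against 15281 and 14371.5 UMIs. Acsl1 was at 590 and 1206 CPM in Ghrl-only cells and at 70.3 and 57.0 CPM in mixed cells, 8.4-fold (5.52 to 13.4) in WT and 21.2-fold (15.3 to 30.2) in NFKO. Mboat4 was shared, at 233 and 314 CPM against 199 and 216 CPM. Neurog3 transcripts below the limit of the rule were read in 12 of 45 WT and 26 of 73 NFKO Ghrl-only cells and in 1 of 22 and 1 of 52 mixed cells.

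Over all genes, 66 of 6525 measured (1.01%) were at least 2-fold higher in Ghrl-only than in mixed cells of both libraries and 104 (1.59%) were lower, with median log2 ratios of -0.01 and -0.10. On the Ghrl-only side were Sox4, a factor of early endocrine cells, at 478 and 712 CPM against 131 and 199 CPM, and Stmn1, a microtubule regulator, at 93.8 and 114 CPM against 18.3 and 23.1 CPM. Ckb (creatine kinase B) was at 186 and 234 CPM against 33.6 and 58.5 CPM, and Maged2, Gper1 and Ina were also on this side. On the mixed side were Ffar1, at 351 and 296 CPM against 36.3 and 29.98 CPM, and the factor Onecut3, at 144 and 197 CPM against 15.1 and 22.9 CPM. Etv1 was at 767 and 516 CPM in mixed against 142 and 207 CPM in Ghrl-only cells. Gpr119, a receptor of lipid amides, was at 79.4 and 81.6 CPM against 15.1 and 14.1 CPM. Secretin was at 6830 and 25922 CPM against 1058 and 6555 CPM, and Scg2 at 1442 and 1050 CPM against 78.7 and 354 CPM. Isl1 was at 1309 and 1230 CPM in Ghrl-only and 1219 and 1195 CPM in mixed cells, so the subsets had this factor in common.

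**Figure D4:**
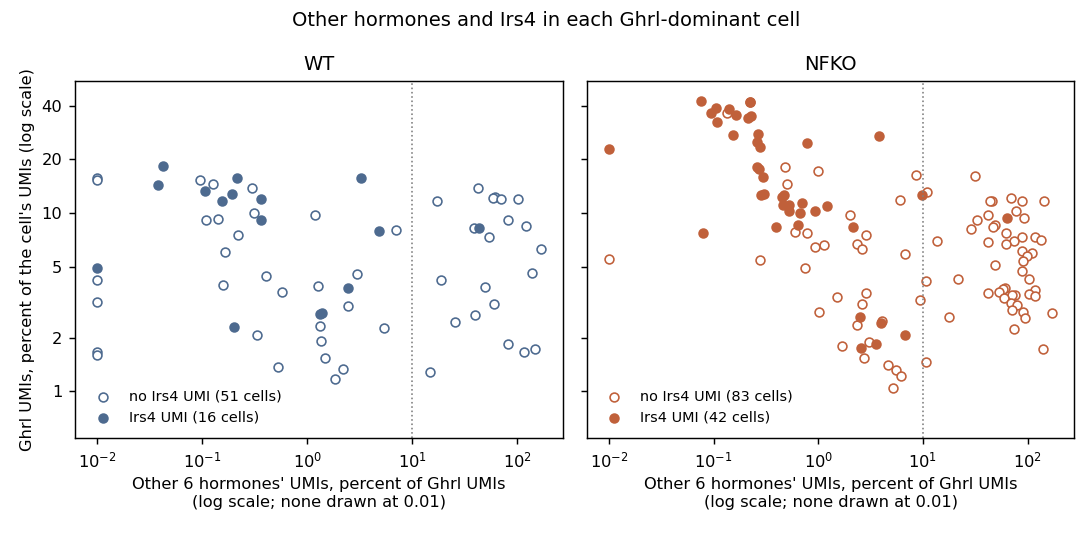
Ghrl share of each Ghrl-dominant cell (percent of UMIs, log scale) against the UMIs of the other 6 hormones as a percentage of its Ghrl UMIs (log scale, cells with none drawn at 0.01), in WT (left) and NFKO (right). Each point is a cell, filled points have an Irs4 UMI, and the dotted line is the limit of 10%. Of the filled points, 15 of 16 in WT and 41 of 42 in NFKO lie left of the line.

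The genes whose level followed that of Ghrl most closely over the cells of both libraries were Lgals3bp, Fxyd2, Serpina1a, Itm2b and Rab3c. Their Spearman correlations with Ghrl ranged from 0.48 to 0.56 over the 67 WT cells and from 0.58 to 0.73 over the 125 NFKO cells, against medians of -0.03 and 0.02 over 6505 genes. Among the furthest in the other direction were the ribosomal protein genes Rpl23, Rpl7a, Rplp0 and Rpl7, from -0.52 to -0.61 in WT and from -0.56 to -0.66 in NFKO. Cells of a library share depth and preparation, and Ghrl is itself part of the total each level is divided by, so these values are descriptions.

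NFKO was then set beside WT, beginning with the deleted gene. Foxo1 (chr3:52268336-52353221) had 35 UMIs in WT Ghrl-dominant cells (35.4 CPM) and 42 in NFKO (23.5 CPM), a ratio of 0.665 (0.414 to 1.07), and in other hormone-dominant cells the ratio was 0.709 (0.600 to 0.840). Over all deposited barcodes Foxo1 was at 11.6 CPM in WT and 12.4 CPM in NFKO, a ratio of 1.07 (0.992 to 1.16). The 3′ reads come from the end of the transcript and do not show whether an internal exon was removed, so this does not check the label. Of 9453 genes with at least 20 UMIs over the Ghrl-dominant cells of both libraries, 319 (3.37%) were at least 2-fold higher in NFKO and 358 (3.79%) at least 2-fold lower. The median log2 ratio was -0.04, and -0.11 over the same genes in other hormone-dominant cells. In all comparisons that follow the libraries also differ in the sex of the mice, in free RNA and in 2 deep WT cells described below, and the part of these in any difference was not tested unless a value is given.

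Ghrl itself was higher in NFKO in Ghrl-only cells, 64722 CPM in WT and 166417 CPM in NFKO (2.57-fold), and nearly level in mixed cells, 67782 and 69573 CPM (1.03-fold). Both deep WT cells were Ghrl-only, with Ghrl shares of 1.54% and 2.28%, so they pull the WT Ghrl-only level down. Without them the ratio over all Ghrl-dominant cells was 1.77, and it was not computed for Ghrl-only cells alone. Irs4 was 2.75-fold higher (2.19 to 3.49) in NFKO and Acsl1 1.88-fold higher (1.69 to 2.11). Mboat4 was 1.25-fold higher (1.07 to 1.48), 1.02-fold with the same weight for each cell, and 0.865-fold in male-typed cells alone. In the 56 WT and 11 NFKO male-typed cells Ghrl was 2.48-fold higher in NFKO, Acsl1 was at 411 and 629 CPM, and Irs4 at 82.2 and 186 CPM. No gene of 16 measured for acylation and processing passed 2-fold in either direction, with a median log2 ratio of 0.22. Of 22 insulin and IGF signalling genes, Irs4 and Foxo6 were at least 2-fold higher and Grb14 at least 2-fold lower, Foxo6 resting on 4 and 18 UMIs. Of 14 known FoxO targets, 0 passed in either direction, with a median log2 ratio of -0.33, and Txnip was at 267 CPM in WT and 211 CPM in NFKO.

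Other secreted products were the group with the most genes higher in NFKO, 6 of 14 measured and 0 lower. Secretin was 4.58-fold higher (4.41 to 4.76), from 2970 to 13606 CPM, and 2.03-fold higher in other hormone-dominant cells. It was uneven among the NFKO Ghrl-dominant cells, with 16833 UMIs in mixed and 7435 in Ghrl-only cells, and 1 Ghrl-only cell held 4190 of the latter. In WT, mixed cells had 2236 and Ghrl-only cells 699 secretin UMIs. Mixed cells made 32.8% of the WT and 41.6% of the NFKO Ghrl-dominant cells. After thinning, a secretin UMI was read in 44.3% of WT and 67.2% of NFKO Muc2-rich reference cells. The part of either in the secretin ratio was not tested. Ttr (transthyretin) was 5.29-fold higher (4.53 to 6.20), from 181 to 958 CPM, and was read in 35 of 67 WT and 80 of 125 NFKO cells. With the same weight for each cell Ttr was 3.45-fold. In the other hormone-dominant cells Ttr was 1.71-fold higher, and in the Muc2-rich reference it was at 49.5 CPM in WT and 33.4 CPM in NFKO. Rbp4, the retinol carrier that binds transthyretin, was 3.81-fold higher (3.24 to 4.50). Igfbp3 was at 8.10 and 73.4 CPM, 9.07-fold (4.47 to 21.5), and was read in 7 WT and 26 NFKO cells, 4 of which held at least 50% of the NFKO UMIs. With the same weight for each cell Igfbp3 was 3.47-fold. Tph1 and Iapp completed the group, Iapp resting on 1 NFKO cell with 90.5% of its UMIs.

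Among 18 ion channel genes 5 were higher in NFKO and 1 lower. Asic5, an acid-sensing channel of the gut, had 0 UMIs in WT and 106 UMIs in 13 NFKO cells, at least 19.6-fold higher. Of these cells 2 held at least 50% of the UMIs, and without the deepest cell of each library the bound was 12.1-fold. Asic5 was 5.11-fold higher in other hormone-dominant cells. Gria2, Trpa1, Kcnh7 and Trpm2 rested on 7, 3, 5 and 5 UMIs in WT, and the lower gene was Kcnq1. Of 18 lipid genes, Lpl and Apoa1 were higher and Elovl6, Dgat1, Cpt1a and Fabp1 lower. Lpl, lipoprotein lipase, had 4 UMIs in 4 WT cells and 117 in 50 NFKO cells, 16.2-fold (6.16 to 60.5). It was 9.20-fold higher in other hormone-dominant cells, and in the reference it was at 0.165 and 0.429 CPM.

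Of 22 heat shock and immediate early genes measured, 8 were at least 2-fold lower in NFKO and 0 higher, with a median log2 ratio of -0.63. Hspa1a was at 374 CPM in WT and 48.2 CPM in NFKO, 0.129-fold (0.101 to 0.163), and Hspa1b at 294 and 28.6 CPM, 0.0971-fold. Dnajb1 was 0.248-fold, Hsph1 0.262-fold, Hsp90aa1 0.475-fold, Jun 0.445-fold and Atf3 0.458-fold. These genes respond to handling and stress of cells. In the other hormone-dominant cells the ratios were 0.118-fold for Hspa1a, 0.142-fold for Hspa1b, 0.230-fold for Dnajb1, 0.251-fold for Hsph1 and 0.440-fold for Jun, so these 5 genes were lower in both sets of cells. The immediate early gene Nr4a1 was on opposite sides, 1.56-fold in Ghrl-dominant and 0.552-fold in other hormone-dominant cells.

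Several of the genes furthest higher in NFKO were also read in the Muc2-rich reference or lay mostly in 1 cell. Gip was at 42.5 CPM in WT and 394 CPM in NFKO Ghrl-dominant cells (9.27-fold) and at 30.4 and 179 CPM in the Muc2-rich reference, and Nts at 32.4 and 232 CPM (7.15-fold) and 15.2 and 180 CPM there. Sst was at 9.11 and 410 CPM, 87.0% of its NFKO UMIs lying in 1 cell, and Reg4 at 7.08 and 91.9 CPM, 65.2% of them in 1 cell. The goblet genes Clca1, Zg16 and Spdef were higher in NFKO, 3 of 8 measured and 0 lower. Clca1 was at 12.1 and 59.4 CPM and at 1151 and 3156 CPM in the reference, whose cells express it. Of 5 tuft genes 4 were higher, with at least 94.4% of the NFKO UMIs of each in 1 cell. Gm10260 was at 1.01 and 60.6 CPM, read in 43 NFKO cells, at 0.5505 and 80.7 CPM in the reference, and 114-fold higher in other hormone-dominant cells. D930028M14Rik was at 8.10 and 52.1 CPM, read in 28 NFKO cells, and had 3 and 0 UMIs in the reference.

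The other 10 of the 12 genes furthest lower in NFKO had more than 50% of their WT UMIs in 2 WT cells, and 5 of them had the lowest ratios of the 12. Reg3b, an antibacterial lectin, was at 10275 CPM in WT and 649 CPM in NFKO, Reg3g at 3814 and 352 CPM, Reg1 at 269 and 19.1 CPM, and Dmbt1 at 520 and 16.3 CPM. The deepest WT Ghrl-dominant cell had 83159 UMIs, 7890 genes and a Ghrl share of 1.54%, and the next deepest, which was also the one with most Reg3b, had 65214 UMIs, 7208 genes and a Ghrl share of 2.28%. Together these held 92.5% of the Reg3b, 90.6% of the Reg3g, 98.9% of the Reg1 and 96.7% of the Dmbt1 UMIs of the 67 WT cells. The deepest cell held 42.8% of the Reg3b and the other 49.7%, and for Reg1 the shares were 18.8% and 80.1%. Without both cells, left out after their values were seen, the NFKO over WT ratios were 0.714 for Reg3b, 0.836 for Reg3g, 0.803 for Dmbt1 and 5.34 for Reg1, the last resting on 3 WT UMIs. Prap1, Spink1, Krt19, St3gal4, Muc3 and Cps1 had ratios from 0.0597 to 0.195 with all cells, and without both cells these were 0.942, 1.80, 1.54, 0.918, 1.02 and 0.335. Of the genes furthest lower in NFKO, Cps1, Hspa1a and Hspa1b alone thus stayed at least 2-fold lower without both cells, at 0.112-fold for Hspa1a and 0.0876-fold for Hspa1b. The Ghrl ratio was 1.77 without them. Of the lipid genes lower in NFKO, Elovl6 had 67.6% and Fabp1 67.2% of the WT UMIs in 1 cell, and Fabp1 was 4.05-fold higher in NFKO without both cells. The other genes of the NFKO cells that passed 2-fold in a list were Hhex, Ptprn and Slc12a2, higher, and Galr1, Nr1h4 and Areg, lower.

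**Figure D5:**
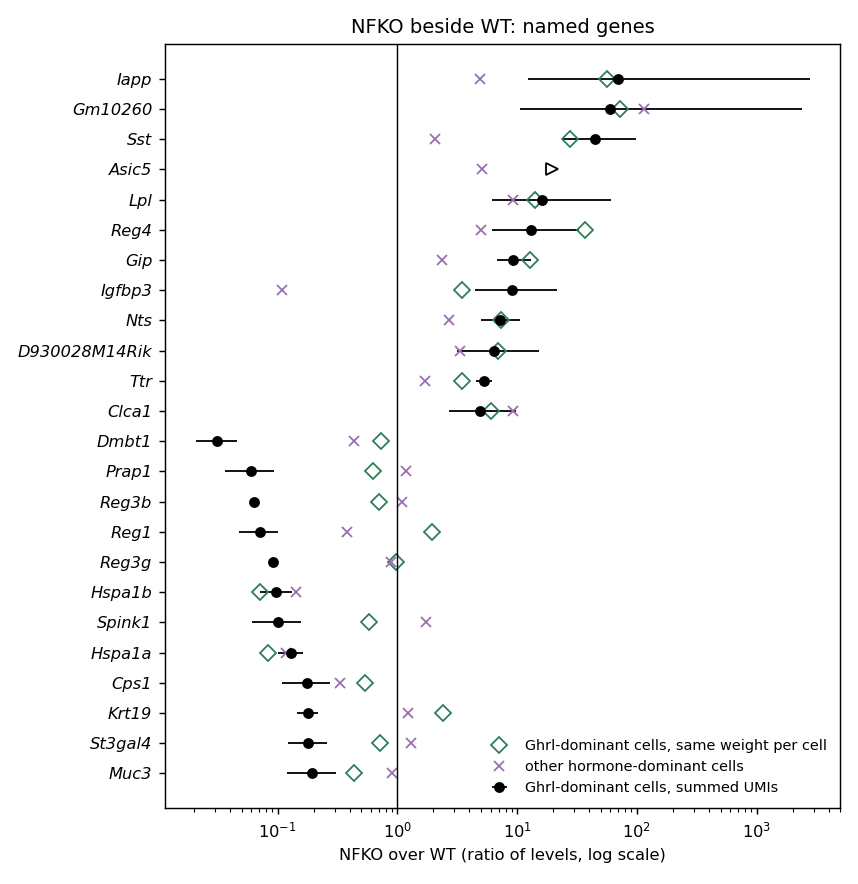
NFKO over WT (ratio of levels, log scale) for the 12 genes with the highest and the 12 with the lowest ratios in Ghrl-dominant cells. Black points are summed UMIs with 95% intervals of counting error (the open triangle is a lower bound), green diamonds give each cell the same weight, and crosses are the other hormone-dominant cells. Hspa1a and Hspa1b keep their place in all measures, whereas Reg1 and Krt19 change sides when cells are weighted equally.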

How the data were processed

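The authors deposited for each library a matrix of whole UMI counts per gene and cell barcode over 32285 genes. The submitters' processing notes name Cell Ranger 5.0.1 and mm10, and the gene annotation is not given in the sources used here. The matrices held 5051 barcodes with 90002878 UMIs for WT and 7540 barcodes with 124300388 UMIs for NFKO. The values were used as deposited, with no normalization other than division by the summed UMIs of the compared cells, times 1e+06 (CPM).

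The members and gene lists were chosen with earlier results of these data known. Cells were selected by the rule given above, with no clustering and no doublet caller. For each class and library the cells' UMIs were added up. Cells are not replicates and each group was 1 library, so no test was run and no p-value is given. Levels have exact Poisson, shares exact binomial (Clopper-Pearson) and ratios exact conditional binomial 95% intervals, which cover counting error only. A group at 0 was set to a floor of 3 counts, summed over the group, for a bound.

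A gene was called at 2-fold or more (in both libraries, where members were compared with other cells) with at least 20 UMIs in the compared cells. The genes named against other hormone-dominant cells were the 16 highest and 8 lowest by the weaker of the libraries' ratios, with at least 50 CPM and 100 UMIs. Those named for NFKO over WT were the 12 highest and 12 lowest ratios under the same minimum, without sex-linked genes. The 5 genes most and least like Ghrl were ranked by the weaker Spearman correlation among genes with a UMI in at least 20% of cells of each library. Genes of the lists are named where they passed the fold or have a known role in ghrelin cells. The Ghrl-only and mixed subsets, their limit and their named genes were chosen after the values were seen. Detection shares were recomputed after thinning each cell to 2000 UMIs, which left out 18 NFKO and 0 WT members. The Muc2-rich reference cells had Muc2 at 0.1% of UMIs or more and no Chga or Chgb.

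Gene positions and the ghrelin coding sequence were read from GENCODE M21 on GRCm38. Calculations used Python 3.11.15 with numpy 2.4.6, scipy 1.17.1 and pandas 2.3.3, and were tested on simulated counts. Alternatives were tried for the quality, Ghrl and Neurog3 limits, sex, possible doublets, cell weighting, scaling and the UMI minimum. Some genes that the naming rule or the lists would name are not reported here.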

Additional observations from a re-analysis of the deposited data

Results flagged for a closer look

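Genes whose NFKO over WT ratio lay on opposite sides in Ghrl-dominant cells and in the other hormone-dominant cells were picked out. The difference itself was not tested. Igfbp3 was 9.07-fold (4.47 to 21.5) in Ghrl-dominant cells and 0.109-fold (0.0621 to 0.182) in the others, where it had 62 UMIs in WT and 20 in NFKO, and 3.47-fold in Ghrl-dominant cells with the same weight for each cell. Gal was 1.72-fold (1.32 to 2.26) and 0.461-fold (0.359 to 0.594). Nr4a1, an immediate early gene, was 1.56-fold (1.11 to 2.22) and 0.552-fold (0.501 to 0.610), and 1.20-fold in Ghrl-dominant cells with the same weight for each cell. Spink1 was 0.1003-fold (0.0614 to 0.157) and 1.75-fold (1.48 to 2.06), and 1.80-fold (0.714 to 5.42) in Ghrl-dominant cells without the WT cells with most UMIs and with most Reg3b, so that it no longer lay on the opposite side. Fabp1 was 0.356-fold (0.237 to 0.529) and 3.44-fold (3.16 to 3.76), and 4.05-fold (1.61 to 13.1) without those WT cells, again on the same side as the others. Fabp2 was 0.612-fold (0.485 to 0.773) and 1.70-fold (1.601 to 1.80), and 0.979-fold (0.740 to 1.30) without them.

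Ghrl-led cells that the rule left out for their Neurog3 content were picked out as a signal outside the comparisons. With no limit on Neurog3, 91 WT and 219 NFKO barcodes would have been Ghrl-dominant, and the limit removed 24 of them in WT (26.4%) and 94 in NFKO (42.9%). All 24 WT cells and 91 of the 94 NFKO cells were Ghrl-only, with a median of 8.5 Neurog3 UMIs in WT and 10 in NFKO. Acsl1 was at 868 CPM in the WT and 1105 CPM in the NFKO cells left out, Mboat4 at 210 and 283 CPM, and Ghrl at 50540 and 54398 CPM. Irs4 was read in 5 of the WT cells (20.8%) and 44 of the NFKO cells (46.8%). Ghrl in the cells left out was therefore close between the libraries, and with them included the ratio of Ghrl between NFKO and WT members fell from 2.0 to 1.5.

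The quality limits left out 16 Ghrl-dominant NFKO barcodes and 0 in WT. These had a median of 655 UMIs, 2 of them exceeded the mitochondrial limit, and 7 were Ghrl-only.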

How the results depend on the processing

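No paired analysis was possible because each group was 1 library and no test was run. The members-over-others ratios of the 42 named values stayed at least 2-fold in the same direction under all 9 alternatives for which they were recomputed. Of the 29 NFKO over WT values, 15 to 27 were at least 2-fold in the direction of the main ratio, with 0 to 6 on the other side of 1. The 29 include Mboat4, Acsl1 and Foxo1, which were under 2-fold in the main setting. The Ghrl ratio of NFKO over WT (2.0) was 1.87 under a minimum of 2000 UMIs and a mitochondrial limit of 10%, 2.02 at a Ghrl limit of 0.5%, 1.52 at 5%, 1.5 with no Neurog3 limit, 2.48 in male-typed cells, 2.06 with possible doublets left out, 1.5 with equal weights, 2.15 with the hormones out of the total, 2.10 with median-of-ratios size factors, 1.79 without the deepest cell of each library and 1.77 without the WT cells with most UMIs and with most Reg3b, the last 2 alternatives being added after seeing the data. With possible doublets left out (the top 5% by UMIs, and cells whose next hormone reached 20% of the leading one, which removes most mixed cells) the ratios to other hormone-dominant cells were 12.4 in WT and 14.9 in NFKO for Mboat4 and 23.9 and 32.4 for Acsl1. The Acsl1 ratio was 21.7 and 25.01 at a Ghrl limit of 5%, 17.1 and 23.4 with no Neurog3 limit, and 18.1 in NFKO with size factors. In male-typed cells the NFKO ratios were 6.57 for Mboat4, 16.1 for Acsl1 and at least 68.3 for Irs4, and with equal weights 8.13 for Mboat4 and 210 for Irs4. The share among hormone-dominant cells, 0.906 as NFKO over WT, was 1.34 in male-typed cells, of which 11 were NFKO members. Genes 2-fold higher and lower in members (245 and 546) were 95 and 224 in male-typed cells and 120 and 292 with at least 100 UMIs, and 2959 were higher with no minimum, where the floor of 3 counts sets many ratios. Genes 2-fold higher and lower in NFKO (319 and 358) were 190 and 957 in male-typed cells, 802 and 2342 with no minimum and 41 and 63 with at least 100 UMIs. Values on the other side of 1 were Mboat4 at 0.865 in male-typed cells and, with possible doublets left out, Reg3b at 1.16, Reg1 at 1.95, Spink1 at 1.83, Krt19 at 1.92, St3gal4 at 1.02 and Muc3 at 1.62. At a Ghrl limit of 5% they were Reg1 at 1.53, Spink1 at 2.01, Krt19 at 1.39 and St3gal4 at 1.03, with equal weights Reg1 at 1.96 and Krt19 at 2.39, and without those WT cells Reg1 at 5.34, Spink1 at 1.80, Krt19 at 1.54 and Muc3 at 1.02. Where no construction is named, the cause was not tested. With 35 and 42 Foxo1 UMIs, and 56 and 11 male-typed members, depth and cell number leave wide intervals for low genes.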
